A study of Mus musculus with 35 samples.

Results

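Liver metastases of KC-shSmad4 tumor cells were compared with primary tumors of the same kind of cells, in libraries labelled Smad4 off. KC-shSmad4 cells are mouse pancreatic ductal adenocarcinoma (PDAC) cells, and each library is the poly(A) RNA of cells sorted from 1 tumor-bearing organ. The comparison took the 4 single-end liver libraries and the 5 primary-tumor libraries that carry this label, 9 of the 35 libraries of the series. The question was which genes differ between a tumor growing in the liver and one growing in the pancreas, and which of these differences lie in genes of the cells of the host organs.

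The tumor cells carried Ptf1a-Cre, which acts in pancreatic progenitors, with an LSL-rtTA3-IRES-mKate2 allele at Rosa26 and a GFP-linked shRNA against *Smad4* at Col1a1 that doxycycline (Dox) switches on. They came from male embryonic stem cells of a mixed C57BL/6J;129 background and had been given luciferase. Hosts were female athymic nude (Foxn1nu) mice of 6 to 8 weeks, which lack mature T cells. Primary tumors grew from cells injected into the tail of the pancreas, and liver metastases from cells injected into the spleen, which was then removed, so that the organ and the route cannot be told apart. By their label the 9 mice of the comparison were kept on Dox, which the *Smad4* mRNA given below goes against. The libraries were collected at the time points called day 7 (3 primary, 1 liver) and day 14 (2 primary, 3 liver). These days count from the Dox withdrawal of the other arm, 4 weeks after injection for the pancreas and 5 weeks for the liver. The arm labelled Smad4 on, by that label taken off Dox, gave 5 primary and 6 liver libraries, used below as a second set with no library in common. Cells were sorted for mKate2, the red reporter of the tumor cells. Which cell line gave each library was not in the labels, so the replicates are mice and may differ in line.

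In a ductal adenocarcinoma the epithelial state rests on cadherin, keratin and tight junction genes, and on foregut transcription factors such as HNF4A, while TGFβ signaling through SMAD2, SMAD3 and SMAD4 and the ZEB, SNAIL and TWIST factors drives the mesenchymal state. The normal pancreas is mostly acinar cells, which are filled with digestive enzyme mRNA, whereas the liver is mostly hepatocytes, which make the proteins of the blood plasma. A trace of either cell type in a sorted tumor sample therefore shows in a few very abundant transcripts.

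Between 16.6 and 32.2 M reads were counted on genes in the primary libraries and between 19.5 and 43.6 M in the liver libraries, which places 3 counts at 0.0684 to 0.181 CPM (counts scaled to the same total in each library). Smaller levels are printed as computed, but rest on fewer than 3 counts and are not resolved from 0. Values below are CPM scaled by TMM and are listed for primary tumors in the order day 7 mice 1, 2 and 3 and day 14 mice 1 and 2, and for liver metastases in the order day 7 mouse 1 and day 14 mice 1, 2 and 3. *Smad4*, the gene the shRNA targets, held 104, 114, 94.5, 101 and 109 CPM in primary tumors and 84.0, 143, 94.0 and 103 CPM in liver metastases. It was not called between the organs (log2 fold change -0.08 ± 0.16 (s.e.), adjusted P = 0.751). The labels run against its mRNA. All 18 libraries labelled off held 69.9 to 143 CPM and all 17 labelled on held 14.8 to 22.4 CPM, so the groups are called labelled off and labelled on. A paired-end liver library labelled off, day 7 mouse 2, was left out. Its acinar transcripts summed to 544 CPM against 6.11 to 14.1 CPM in the other 4, and its fibroblast transcripts to 36774 CPM against 286 to 4551 CPM. Counts of the mitochondrial gene *mt-Co3* were present in 1 liver library, day 14 mouse 3, and in 0 primary libraries.

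Pancreatic host RNA was present in every primary library and nearly absent from the liver. The 20 acinar genes summed to 1374 to 4887 CPM in primary tumors and to 6.11 to 14.1 CPM in liver metastases, and 19 of the 20 were called lower. Most of the liver sum was the list member *Cela1*, at 4.31, 11.3, 13.1 and 9.16 CPM. *Cela1* also held 5.07 to 11.8 CPM in lung metastases labelled off. Calls required more than a 2-fold difference and an edgeR Benjamini-Hochberg adjusted P under 0.05 over all genes. Among all 16017 genes tested 8.09% were called lower. *Ctrb1*, a chymotrypsinogen, held 931, 1251, 782, 372 and 1138 CPM in primary tumors and 0.0684, 0.0601, 0 and 0.0523 CPM in liver metastases (log2 fold change -13.96 ± 0.62 (s.e.), adjusted P = 1.24e-05). *Prss2*, a trypsinogen, held 402, 579, 367, 146 and 434 CPM in primary tumors and 0.456, 0.18, 0.115 and 0.157 CPM in liver metastases (log2 fold change -10.42 ± 0.51 (s.e.), adjusted P = 2.39e-05). The lipase gene *Pnlip* held 539.8, 312, 221, 109 and 521 CPM in primary tumors and had no count in any liver library. The median log2 fold change of the list was -12.19, and -10.55 with the 6 genes that had no liver count set to 3 counts per library. Islet hormone genes behaved in the same way, with all 7 tested members called lower and *Ins2* at 11.2, 12.4, 1.75, 5.21 and 13.5 CPM in primary tumors and 0 in each liver library. Of the acinar genes, only *Bhlha15*, a factor of secretory cells, was not called (log2 fold change -0.95 ± 0.54 (s.e.), adjusted P = 0.226).

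Hepatocyte RNA was low in the liver metastases. The 20 hepatocyte genes summed to 88.5 to 190 CPM there and to 10.99 to 28.6 CPM in primary tumors. Of the 14 tested genes 9 were called higher, against 6.8% of all genes, with a median log2 fold change of 3.10 (2.18 with the 2 genes without a primary count set to 3 counts per library). *Alb*, the albumin gene and the most abundant mRNA of a hepatocyte, held only 0.176, 0.116, 0, 0.111 and 0.448 CPM in primary tumors and 1.64, 0.841, 9.28 and 12.8 CPM in liver metastases (log2 fold change 4.45 ± 0.92 (s.e.), adjusted P = 0.00778). Fibrinogen genes were lower still, with *Fgb* at 0.251, 0.42, 1.34 and 2.14 CPM in the liver libraries. Other members held more. *Ambp*, which encodes a plasma protease inhibitor, held 18.9, 5.27, 7.24, 8.75 and 9.09 CPM in primary tumors and 33.8, 51.7, 35.5 and 52.6 CPM in liver metastases. Every liver library lay above every primary library.

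Genes of the hepatocyte list did not all keep to the level of albumin. Across the 4 liver libraries the ratio of *Fgb* to *Alb* ranged from 0.144 to 0.50, a 3.47-fold range, whereas *Apoa1* to *Alb* ranged 56.5-fold, *Ambp* to *Alb* 16.1-fold and *Ttr* to *Alb* 12.8-fold. In the 8 lung metastases labelled off, where *Alb* held 0 to 0.462 CPM, *Ambp* held 18.04 to 71.0 CPM and *Apoa1* 0.627 to 35.3 CPM. The lung ranges of both genes overlapped those of the liver metastases, at an *Alb* level like that of the primary tumors. Per kilobase of transcript, 654 of the 1089 genes called higher in the liver (60.1%) had a mean level above the 2.62 CPM per kb of *Alb*, and 485 (44.5%) were above it in each of the 4 libraries. This compares levels within the liver libraries, not differences between organs.

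The summed fibroblast level differed between the organs by more CPM than the hepatocyte level did. The 14 fibroblast and stellate cell genes summed to 13325 to 18122 CPM in primary tumors, but to 373, 286, 4551 and 1841 CPM in the liver libraries in the order given above. In lung metastases labelled off they summed to 192 to 2088 CPM, also below every primary tumor. Of the 12 tested, *Col3a1*, *Col1a1*, *Acta2*, *Dcn*, *Lum*, *Pdgfra*, *Pdgfrb* and *Postn*, were called lower (8 of 12, median log2 fold change -3.57). *Acta2*, the smooth muscle actin of myofibroblasts, held 847, 1026, 1193, 1078 and 937 CPM in primary tumors and 34.0, 12.9, 180.2 and 68.5 CPM in liver metastases (log2 fold change -4.06 ± 0.73 (s.e.), adjusted P = 0.00447). *Dcn*, a matrix proteoglycan, held 409.7, 457, 158, 434 and 353 CPM in primary tumors and 4.52, 16.6, 35.8 and 13.8 CPM in liver metastases (log2 fold change -4.88 ± 0.59 (s.e.), adjusted P = 0.000771). Liver mouse 2 of day 14 was the highest of the 4 for both, and still under every primary tumor. In bulk RNA, fewer cells of a type and less RNA per cell cannot be told apart, and mesenchymal tumor cells express several of these genes too. Without liver mouse 1 of day 7 the calls of *Col3a1* (-2.71) and *Lum* (-2.75) were lost. *Lum* also lost its call without any of 4 other libraries, and *Pdgfra* without any of 8 of the 9.

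The other host lists summed to less than the fibroblast list in each of the 9 libraries. Macrophage genes summed to 99.3 to 197 CPM in primary tumors and 19.0 to 91.4 CPM in liver metastases. Leukocyte genes summed to 46.6 to 117 and 32.3 to 126 CPM. Of 8 tested macrophage genes, 6 were called lower, among them the complement gene *C1qa* (21.8, 17.4, 24.2, 17.6 and 32.6 and 2.99, 6.07, 14.2 and 7.53 CPM). The Kupffer cell gene *Clec4f* did not exceed 0.471 CPM in any of the 9 libraries. *Cd5l*, a macrophage gene also used as a Kupffer marker, was called higher at no more than 0.575 CPM, a call lost without any of 5 libraries. Endothelial genes were lower for 5 of 8, including *Pecam1* (log2 fold change -2.31 ± 0.37 (s.e.), adjusted P = 0.00243). The endothelial sum overlapped, at 21.6 to 37.6 CPM in primary tumors and 9.70, 23.9, 73.5 and 9.57 CPM in liver metastases. Of 6 tested sinusoidal genes 2 were called higher, *Stab2* at 0.684, 0.51, 0.993 and 1.46 CPM in the liver libraries and *Fcna* at 3.63, 22.7, 3.51 and 2.72 CPM, a call lost without any of 6 libraries. edgeR called 0 of 9 leukocyte and 0 of 5 erythroid genes (5 and 2 at an unadjusted P under 0.05, and 5 and 2 called by DESeq2). Of all 16017 genes tested, 6075 had an unadjusted edgeR P under 0.05 and DESeq2 called 2682. Such counts, here and below, are to be read against these. *Xist*, which female cells transcribe and whose source here can be the female host, held 21.6, 14.3, 11.2, 7.61 and 12.7 CPM in primary tumors and 2.74, 3.66, 4.47 and 3.82 CPM in liver metastases (log2 fold change -1.81 ± 0.33 (s.e.), adjusted P = 0.00468), lower in each liver library than in each primary tumor. The Y-linked genes *Ddx3y*, *Eif2s3y* and *Uty* had no count in any of the 9 libraries, and *Kdm5d* held 0.0456, 0, 0.0382 and 0.0523 CPM in the liver libraries and 0 in each primary tumor, so they could not serve as a mark of the tumor cells.

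**Figure D1:**
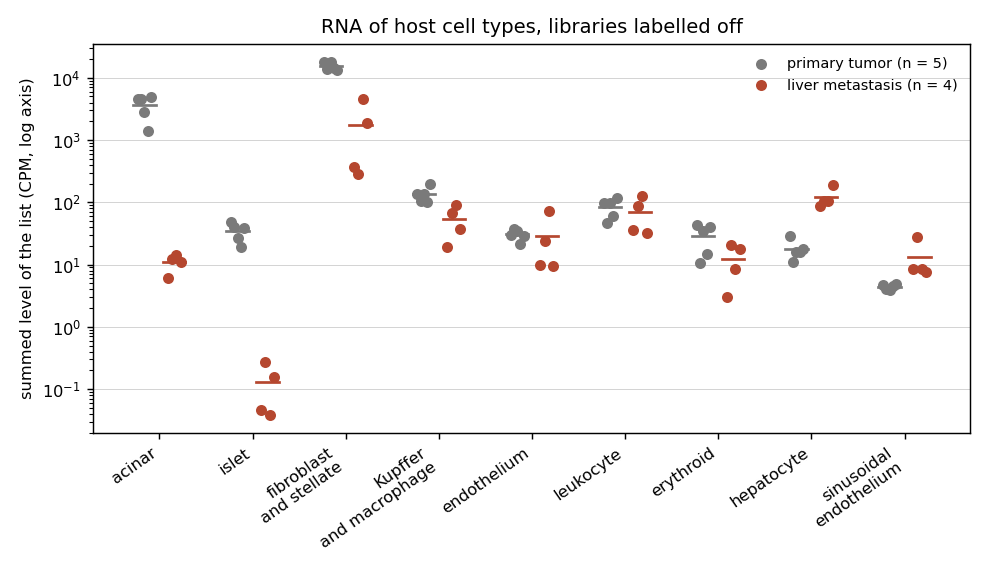
Summed level of the marker genes of 9 host cell types in each library labelled off (vertical axis, CPM, log scale), with points for libraries (5 primary tumors, 4 liver metastases) and a line at each group mean. Acinar, islet and fibroblast sums were lower in all 4 liver metastases than in all 5 primary tumors, whereas the hepatocyte sum was higher in all 4 but stayed at 88.5 to 190 CPM.

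Across the transcriptome 1089 genes were called higher and 1295 lower in liver metastases, 6.8% and 8.09% of those tested, with a median log2 fold change over all genes of 0.02. The counts of called genes per list below are to be read against these shares. The groups did not overlap for 973 of the genes called higher (89.3%) and 1115 of those called lower (86.1%), against 12.6% and 13.7% of all genes tested. On a host list stood 13 of the genes called higher and 46 of those called lower. The host lists are short, so these counts are bounded by list size and do not give the part of host RNA in the calls. The shares called of the main host lists are given above. To relate the remaining genes to host RNA, each gene was placed by its slope and correlation with the mean level of a host list. This is a description over the 10 single-end liver libraries of both labels, or the 10 primary tumors, with each label centred on its own mean, and the libraries share the host RNA. Of the genes called higher, 214 (19.7%) tracked the hepatocyte list across liver libraries and 556 (51.1%) did not, compared with 4.92% and 78.3% of all genes. Of those called lower, 33 (2.55%) tracked the acinar list across primary tumors against 0.237% of all genes. The fibroblast list was tracked by 108 (8.34%) across liver libraries against 0.955% of all genes, and by 84 (6.49%) across primary tumors against 1.16%. Tracking does not mark a gene as host RNA: *Epcam*, an epithelial adhesion gene that hepatocytes of the adult liver largely lack, also tracked the hepatocyte list. Among genes of neither list, *Klk1*, *Gp2*, *Cuzd1*, *Try10* and *Pla2g1b*, all of the exocrine pancreas, were lower and tracked the acinar list, with *Gp2* at 72.2, 109.9, 57.1, 26.7 and 74.6 CPM in primary tumors and 0, 0.21, 0 and 0 CPM in liver metastases.

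A host level was also entered in the fit as a covariate. Each level is the mean log2 CPM of its own list, so for members of that list the fit says nothing about their difference. With the hepatocyte level 819 genes were called higher, 317 of them among the 1089, and 771 lower, 393 of them among the 1295. With the fibroblast level, a covariate chosen after the data were seen, 184 were called higher, 146 of them among the 1089, and 51 lower, 41 of them among the 1295. Both levels differ between the organs, so these fits also remove part of the difference between organs. A set of 94 genes called higher and 21 called lower held in both, and 55 and 6 of them also with the paired-end library added. Holding in these fits does not mark a gene as one of the tumor cells. No acinar level was entered, and the acinar-list genes *Prss2* and *Pnliprp1* were among the 6. Among the genes called higher that held in all of these fits were secretory and surface genes such as *Tff2*, *Tff3*, *Muc13*, *Cldn3*, *Prap1* and *Lypd8*, described next.

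Genes of carcinoma epithelium were higher in liver metastases, with 9 of 10 called, a median log2 fold change of 1.64 and 0 lower. The shift was not particular to the liver. These genes summed to 6574 to 15043.5 CPM in lung metastases labelled off, 12840.5 to 17106.5 CPM in liver metastases and 2917 to 5075 CPM in primary tumors. *Krt19* (ENSMUSG00000020911, GRCm38 chromosome 11, 100140810 to 100148665), the keratin of pancreatic ducts, held 780.3, 525, 611, 1048 and 994 CPM in primary tumors and 2759, 3877, 3568 and 3727 CPM in liver metastases (log2 fold change 1.93 ± 0.15 (s.e.), adjusted P = 0.000128). Every liver library lay above every primary tumor. *Epcam* (chromosome 17, 87635979 to 87651106) held 122, 120.2, 87.8, 137 and 146 CPM in primary tumors and 282, 391, 515 and 612 CPM in liver metastases (log2 fold change 1.62 ± 0.18 (s.e.), adjusted P = 0.000506). *Krt8*, the keratin that pairs with *Krt18*, held 1109.8, 544, 1201, 1218 and 1112 CPM in primary tumors and 3861, 5006, 4236 and 5118 CPM in liver metastases (log2 fold change 2.001 ± 0.23 (s.e.), adjusted P = 0.000635). E-cadherin (*Cdh1*) rose too (log2 fold change 1.25 ± 0.18 (s.e.), adjusted P = 0.00169). The exception was *Sox9*, a duct progenitor factor, which held 192, 201, 166, 209.7 and 247 CPM in primary tumors and 247, 265, 169 and 159 CPM in liver metastases (log2 fold change 0.01 ± 0.20 (s.e.), adjusted P = 0.987) with overlapping groups. The call of *Krt19* was lost with the fibroblast level as a covariate (adjusted P = 0.063) and that of *Epcam* with the paired-end library added (adjusted P = 0.10).

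Tight junction genes were mostly higher, with 14 of 24 called higher, 1 called lower and a median log2 fold change of 1.32. In lung metastases labelled off they summed to 2334 to 3040 CPM, also above the 1508 to 1761 CPM of primary tumors. *Cldn7* (chromosome 11, 69964779 to 69967885), a claudin of simple epithelia, held 21.5, 21.2, 11.3, 26 and 25.7 CPM in primary tumors and 113, 98.7, 158 and 120.0 CPM in liver metastases (log2 fold change 2.39 ± 0.23 (s.e.), adjusted P = 0.000286). The claudin *Cldn3* held 10.7, 9.03, 9.84, 7.68 and 11.3 CPM in primary tumors and 65.0, 48.7, 97.3 and 170.2 CPM in liver metastases (log2 fold change 3.15 ± 0.36 (s.e.), adjusted P = 0.000616). *Ocln*, the occludin gene, held 19.8, 14.1, 10.3, 16.9 and 18.7 CPM in primary tumors and 34.4, 55.2, 95.8 and 97.9 CPM in liver metastases (log2 fold change 1.82 ± 0.29 (s.e.), adjusted P = 0.00248). For all 3 the liver libraries lay above every primary tumor. The polarity genes *Crb3* (log2 fold change 1.52 ± 0.15) and *Pard6b* (2.16 ± 0.36) were called higher as well, while the scaffold genes *Tjp1* (-0.32) and *Pard3* (-0.42) were not called. Liver mouse 3 of day 14, with the most hepatocyte RNA, was the highest of the 9 libraries for 15 of the 24 genes, and 5 of the 14 called higher tracked the hepatocyte list against 4.92% of all genes. *Cldn7* and *Crb3* kept their calls with each host level as a covariate. *Cldn1* went the other way, from 16.4, 40.0, 19.4, 20.5 and 20.5 CPM in primary tumors to 0.251, 0.39, 1.03 and 1.10 CPM in liver metastases (log2 fold change -5.29 ± 0.55 (s.e.), adjusted P = 0.000371). *Cldn1* was also low in the lung metastases, at 0.0419 to 1.55 CPM.

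Gastric and mucin genes made the list with the highest median among those not taken from host organs, 2.31, with 12 of 18 called higher and 0 lower. *Tff2* (ENSMUSG00000024028, GRCm38 chromosome 17, 31141049 to 31144282), a trefoil peptide that the gastric mucosa secretes with mucus, held 37.4, 31.3, 45.7, 55.1 and 54.4 CPM in primary tumors and 174, 352, 701 and 499 CPM in liver metastases (log2 fold change 2.82 ± 0.28 (s.e.), adjusted P = 0.000299). *Tff3*, the trefoil peptide of intestinal goblet cells, held 2.29, 1.68, 2.48, 1.85 and 2.66 CPM in primary tumors and 55.2, 58.6, 87.9 and 118 CPM in liver metastases (log2 fold change 5.02 ± 0.27 (s.e.), adjusted P = 2.76e-05). *Muc13*, a membrane mucin, held 26.1, 16.9, 25.4, 34.7 and 39.6 CPM in primary tumors and 105, 150.1, 175 and 207 CPM in liver metastases (log2 fold change 2.20 ± 0.16 (s.e.), adjusted P = 8e-05). All 3 were separated between the groups, and all 3 calls held with the block for mouse number, on day 14 alone, with the paired-end library and with each host level as a covariate. *Agr2*, a disulfide isomerase needed for mucin folding, held 7.35, 3.36, 4.17, 3.92 and 1.15 CPM in primary tumors and 44.4, 10.5, 71.6 and 40.7 CPM in liver metastases (log2 fold change 3.66 ± 0.62 (s.e.), adjusted P = 0.00318). *Pgc*, pepsinogen C of the stomach, held 1.29, 0.694, 0.845, 0.259 and 0.352 CPM in primary tumors and 2.60, 7.96, 11.5 and 12.2 CPM in liver metastases (log2 fold change 3.80 ± 0.76 (s.e.), adjusted P = 0.00686). The other 6 members were not called, including the secreted gastric mucins *Muc5ac* (adjusted P = 0.277) and *Muc6* (adjusted P = 0.934), both at 4.50 CPM or less in every library, and *Ctse*, a gastric protease (log2 fold change 0.90 ± 0.49 (s.e.), adjusted P = 0.213). In lung metastases labelled off *Tff2* held 222 to 575 CPM and *Muc13* 104 to 345 CPM, so both metastatic sites stood above the 31.3 to 55.1 and 16.9 to 39.6 CPM of the primary tumors.

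Transcription factors of the foregut endoderm were split, with 6 of 17 called higher, 1 lower and a median of 0.63. *Hnf4a* (ENSMUSG00000017950, GRCm38 chromosome 2, 163506808 to 163572910), which sets epithelial identity in liver, gut and the gastric-like form of PDAC, held 134, 101, 122, 93.8 and 104 CPM in primary tumors and 343, 160.5, 250.0 and 290.0 CPM in liver metastases (log2 fold change 1.32 ± 0.18 (s.e.), adjusted P = 0.00138). Hepatocytes express *Hnf4a* too, and their part in the difference was not tested. In the 8 lung metastases it held 256 to 347 CPM, a range that overlapped that of the liver libraries. *Elf3*, an epithelial ETS factor, held 125, 85.2, 71.4, 163 and 169 CPM in primary tumors and 300.0, 295, 696 and 852 CPM in liver metastases (log2 fold change 1.77 ± 0.31 (s.e.), adjusted P = 0.00347). The related nuclear receptor *Hnf4g* held 2.47, 1.10, 1.03, 1.51 and 1.73 CPM in primary tumors and 6.53, 4.47, 11.7 and 17.4 CPM in liver metastases (log2 fold change 2.48 ± 0.46 (s.e.), adjusted P = 0.00488). *Foxa1* and *Foxa3* were also called higher. *Gata6* (log2 fold change 0.42 ± 0.16 (s.e.), adjusted P = 0.0831), *Pdx1* (log2 fold change 0.52 ± 0.18 (s.e.), adjusted P = 0.0627) and *Gata4* (-0.06), factors of pancreatic and gastric lineage, were not called. *Nr5a2*, an acinar factor, was the 1 called lower, at 1.59, 1.504, 1.33, 0.369 and 1.02 CPM in primary tumors, and lost its call without any of 6 of the 9 libraries. The calls of *Hnf4a*, *Hnf4g* and *Elf3* were lost with either host level as a covariate, on day 14 alone and with the paired-end library, where *Hnf4a* differed by 1.05 (adjusted P = 0.11).

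**Figure D2:**
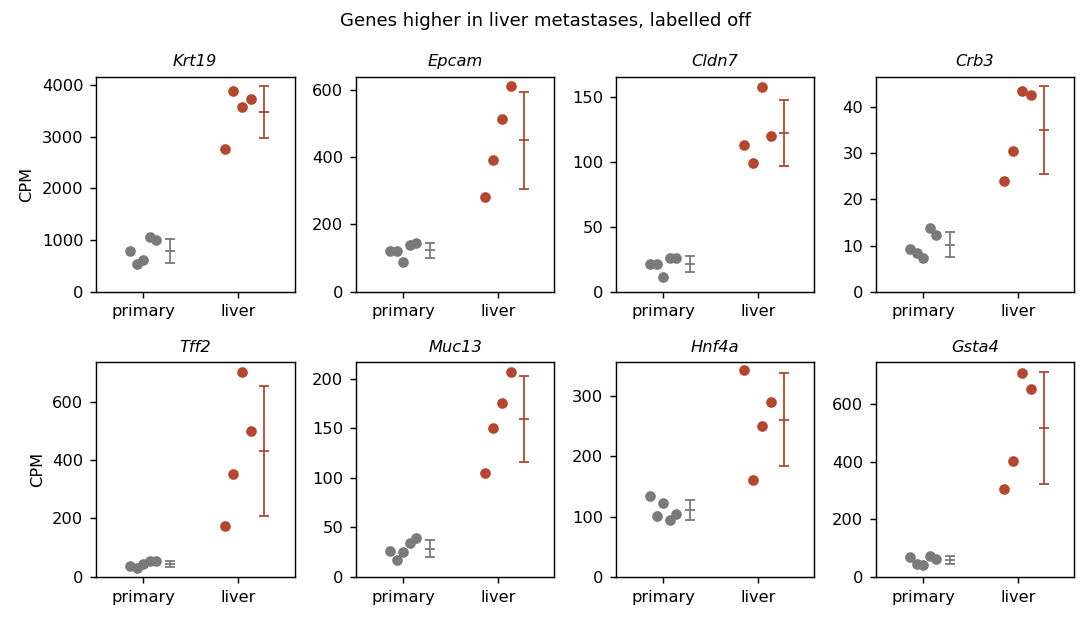
Levels of 8 genes higher in liver metastases (vertical axes, CPM, from 0), with a point per library labelled off (5 primary tumors, 4 liver metastases) and the group mean with its SD beside them. For *Krt19*, *Tff2*, *Muc13*, *Gsta4* and the other 4 genes every liver library lay above every primary tumor.

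Outside the lists, the genes called higher that did not track the hepatocyte list were led by *Prap1*, a secreted protein of the gut epithelium, with 0.294, 0.289, 0.0604, 0.222 and 0.288 CPM in primary tumors and 52.3, 49.0, 39.6 and 42.6 CPM in liver metastases (log2 fold change 7.57 ± 0.28 (s.e.), adjusted P = 6.59e-06). *Lypd8*, a GPI-anchored protein of the colon surface, held 4.65, 2.89, 5.01, 0.923 and 2.34 CPM in primary tumors and 191, 107, 137 and 204 CPM in liver metastases (log2 fold change 6.07 ± 0.37 (s.e.), adjusted P = 4.5e-05). *Akr1b7*, an aldo-keto reductase, held 0.412, 0.521, 0.362, 0.554 and 0.48 CPM in primary tumors and 10.6, 32.8, 23.9 and 33.0 CPM in liver metastases (log2 fold change 5.35 ± 0.29 (s.e.), adjusted P = 3.1e-05). None of the 3 exceeded 5.01 CPM in a primary tumor, and none was under 10.6 CPM in a liver library. *Plaur*, the urokinase receptor, rose by less but with little spread (181, 179, 183, 159.8 and 160.1 and 507, 451, 442 and 396 CPM, log2 fold change 1.42 ± 0.10 (s.e.), adjusted P = 7.27e-05). *Misp*, which binds actin at the cell cortex, held 30.1 to 52.1 CPM in primary tumors and 127 to 198 CPM in liver metastases. *Sftpd*, a collectin named for lung surfactant that other epithelia also make, held 9.18, 7.41, 7.06, 18.8 and 20.2 CPM in primary tumors and 34.4, 92.8, 120.1 and 79.3 CPM in liver metastases. Among the 6 named genes that did track the hepatocyte list were *Abcc3*, a bile salt and conjugate exporter (18.4, 13.8, 15.2, 19.1 and 25.9 CPM in primary tumors and 87.0, 133, 205 and 254 CPM in liver metastases), and *Fcgbp*, a mucus protein (219.9, 251, 265 and 656 CPM in the liver libraries). Each of these genes was present in lung metastases as well, *Prap1* at 9.07 to 82.4 CPM, *Lypd8* at 50.5 to 398 CPM and *Abcc3* at 56.6 to 143 CPM.

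Of 16 mesenchymal genes 8 were called lower and 0 higher, with a median of -1.14. They summed to 8401 to 12920.5 CPM in lung metastases labelled off and 7749 to 18546 CPM in liver metastases. Both sites were under the 24877 to 31795 CPM of primary tumors. *Fn1* (ENSMUSG00000026193, GRCm38 chromosome 1, 71585520 to 71653200), the fibronectin gene, held 12803, 11970.1, 17135, 13362 and 15469 CPM in primary tumors and 3711, 4624, 4077 and 2696 CPM in liver metastases (log2 fold change -1.95 ± 0.22 (s.e.), adjusted P = 0.000498). *Zeb2* (chromosome 2, 44983632 to 45117395), a repressor of epithelial genes, held 92.8, 99.8, 90.9, 91.8 and 97.9 CPM in primary tumors and 37.5, 53.7, 30.3 and 27.1 CPM in liver metastases (log2 fold change -1.38 ± 0.21 (s.e.), adjusted P = 0.00196). *Twist1*, a bHLH factor of the mesenchyme, held 51.8, 66.5, 63.5, 66.6 and 64.4 CPM in primary tumors and 27.2, 36.2, 24.5 and 37.6 CPM in liver metastases (log2 fold change -1.09 ± 0.16 (s.e.), adjusted P = 0.00152). The groups were apart for all 3. *Vim*, the vimentin gene, did not pass the test and overlapped (4876, 6263, 6138, 5955 and 5261 CPM in primary tumors and 5388, 8842, 3815 and 3045 CPM in liver metastases, log2 fold change -0.13 ± 0.31 (s.e.), adjusted P = 0.803). *Axl* (-0.54), *Lgals1* (-0.42), *S100a4* (-0.11) and the SNAIL factors *Snai1* (adjusted P = 0.0839) and *Snai2* (adjusted P = 0.0508) did not pass either.

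Fibroblasts also make these mesenchymal genes, the summed fibroblast list was lower in the liver libraries too, and its part in the calls was not tested. Within the 4 liver libraries, the ratio to *Col1a1* of the fibroblast-list genes *Col3a1*, *Pdgfrb* and *Postn* ranged 1.35-fold, 4.85-fold and 6.62-fold. The ratio of *Fn1* to *Col1a1* ranged 18.5-fold, that of *Zeb2* 28.9-fold and that of *Sparc* 4.59-fold. Other members of the fibroblast list were not set against *Col1a1*, so these ranges do not give the spread of the whole list. *Dcn*, a list member given above, was higher in mouse 1 of day 14 than in mouse 3 of day 14, whereas *Col1a1* was lower (42.8 and 385 CPM). Liver mouse 1 of day 14, with the lowest fibroblast sum, held the highest *Fn1* of the 4 (4624 CPM) and the highest *Zeb2* (53.7 CPM). *Cdh11*, a fibroblast cadherin (30.4, 84.5, 44.1, 92.5 and 100.4 and 1.57, 1.29, 19.3 and 1.05 CPM), followed the fibroblast sum in its highest library. *Prrx1*, a fibroblast homeobox factor, held 6.23, 47.5, 76.1 and 21.7 CPM in the liver. By the definition above, *Fn1*, *Zeb2* and *Twist1* did not track the fibroblast list in the liver libraries. With the fibroblast level as a covariate *Zeb2* kept its call (-2.31, adjusted P = 0.039), while *Fn1* (-2.17, adjusted P = 0.09) and *Twist1* (-1.71, adjusted P = 0.057) kept direction without passing. *Twist1* was also under the fold threshold without liver mouse 1 of day 7 (-0.98) or liver mouse 2 of day 14 (-0.91). With the paired-end library, which holds the most fibroblast RNA, *Fn1* differed by -1.13 (adjusted P = 0.13), *Zeb2* by -0.87 and *Twist1* by -0.28.

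In the TGFβ pathway 6 of 19 genes were called lower and 1 higher, with a median of -0.20. In lung metastases labelled off the list summed to 2058 to 2755 CPM. That range overlapped the 2124 to 2433 CPM of liver metastases and the 2691 to 3118 CPM of primary tumors. Among the ligands, *Tgfb2* held 73.2, 73.7, 64.3, 111 and 104 CPM in primary tumors and 4.72, 9.76, 32.0 and 16.9 CPM in liver metastases (log2 fold change -3.00 ± 0.41 (s.e.), adjusted P = 0.00129). *Tgfb3*, another ligand, held 214, 291, 314, 302 and 285 CPM in primary tumors and 70.4, 43.8, 117 and 51.2 CPM in liver metastases (log2 fold change -2.05 ± 0.30 (s.e.), adjusted P = 0.00179). *Tgfb1* overlapped between the groups (log2 fold change -0.13 ± 0.26 (s.e.), adjusted P = 0.744). Of the receptors, *Tgfbr2* (chromosome 9, 116084293 to 116175360), which binds the ligand, held 322, 341, 466, 439.7 and 377 CPM in primary tumors and 93.8, 84.3, 176 and 167 CPM in liver metastases (log2 fold change -1.74 ± 0.25 (s.e.), adjusted P = 0.00153). The coreceptor *Tgfbr3* was lower too (log2 fold change -2.36 ± 0.35 (s.e.), adjusted P = 0.00188), and *Tgfbr1* was not called (-0.22). The signal transducers *Smad2* (0.02) and *Smad3* (0.46) and the inhibitor *Smad7* (-0.20) did not pass. Of the targets, *Pmepa1* (ENSMUSG00000038400, GRCm38 chromosome 2, 173224458 to 173276533), a feedback inhibitor, held 490.5, 602, 609, 467 and 516 CPM in primary tumors and 218, 177, 207 and 219 CPM in liver metastases (log2 fold change -1.36 ± 0.13 (s.e.), adjusted P = 0.00027). The corepressor *Ski* was lower (log2 fold change -1.03 ± 0.20 (s.e.), adjusted P = 0.00536). *Id1*, a target of BMP and TGFβ signals, was the gene called higher (41.5, 24.5, 38.3, 39.4 and 41.8 CPM in primary tumors and 119.8, 47.2, 109.9 and 223 CPM in liver metastases, log2 fold change 1.66 ± 0.39 (s.e.), adjusted P = 0.0137). Its call was lost without liver mouse 1 of day 7 (1.64) and with the block for mouse number (1.04, adjusted P = 0.062). With the fibroblast level as a covariate *Pmepa1* differed by -1.21 (adjusted P = 0.10), *Tgfbr2* by -0.60 and *Tgfb2* by -0.82, none of them called. *Tgfb2* tracked the fibroblast list in the liver libraries, and *Pmepa1* did not.

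Integrin genes went both ways, 3 of 12 higher and 3 lower, with a median of -0.11. The epithelial *Itgb6* held 4.71, 2.37, 2.60, 3.29 and 4.09 CPM in primary tumors and 6.87, 14.2, 18.6 and 25.4 CPM in liver metastases (log2 fold change 1.89 ± 0.36 (s.e.), adjusted P = 0.00539). The collagen receptor subunits *Itga2* (log2 fold change 1.17 ± 0.22 (s.e.), adjusted P = 0.00529) and *Itga1* (log2 fold change 1.47 ± 0.32 (s.e.), adjusted P = 0.00981) were higher. Both calls were lost without liver mouse 1 of day 7 (1.10 and 1.53). *Itgb5*, a partner of the αv subunit, held 428, 469.9, 419, 652 and 651 CPM in primary tumors and 164, 131, 242 and 206 CPM in liver metastases (log2 fold change -1.66 ± 0.19 (s.e.), adjusted P = 0.000582). *Itgb8* (log2 fold change -1.99 ± 0.44 (s.e.), adjusted P = 0.0104) and *Itgb3* (log2 fold change -1.33 ± 0.34 (s.e.), adjusted P = 0.0201), the other partners called lower, were less stable. *Itgb8* lost its call without liver mouse 1 of day 7 (-1.73) and *Itgb3* without any of 4 libraries.

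Of the 7 genes of the fibrogenic program 2 were called lower and 0 higher (median -0.39). The study cites earlier work for the program and shows these genes as representative of it in these samples. The list is therefore not independent evidence of a direction. *Col6a1* (chromosome 10, 76708792 to 76726168), a collagen VI chain, held 1033, 1214, 1233, 1460.0 and 1225 CPM in primary tumors and 256, 270.1, 656 and 247 CPM in liver metastases (log2 fold change -1.96 ± 0.32 (s.e.), adjusted P = 0.0025). *Wisp1*, a matricellular CCN gene, held 103, 107, 192, 100.4 and 104 CPM in primary tumors and 19.1, 3.60, 26.9 and 19.6 CPM in liver metastases (log2 fold change -2.73 ± 0.52 (s.e.), adjusted P = 0.00563). The cytokine *Il11* held 14.2, 6.94, 5.98, 7.72 and 9.63 CPM in primary tumors and 39.9, 33.2, 3.74 and 10.7 CPM in liver metastases, with 2 liver libraries above every primary tumor, 1 within their range and 1 below them (log2 fold change 1.37 ± 0.58 (s.e.), adjusted P = 0.117). *Has2* (log2 fold change -0.94 ± 0.34 (s.e.), adjusted P = 0.0717), *Ccbe1* (log2 fold change 0.83 ± 0.53 (s.e.), adjusted P = 0.286) and *Itga5* (-0.39) were not called. Both calls were lost with the fibroblast level as a covariate, at -0.60 for *Col6a1* and -0.68 for *Wisp1*.

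**Figure D3:**
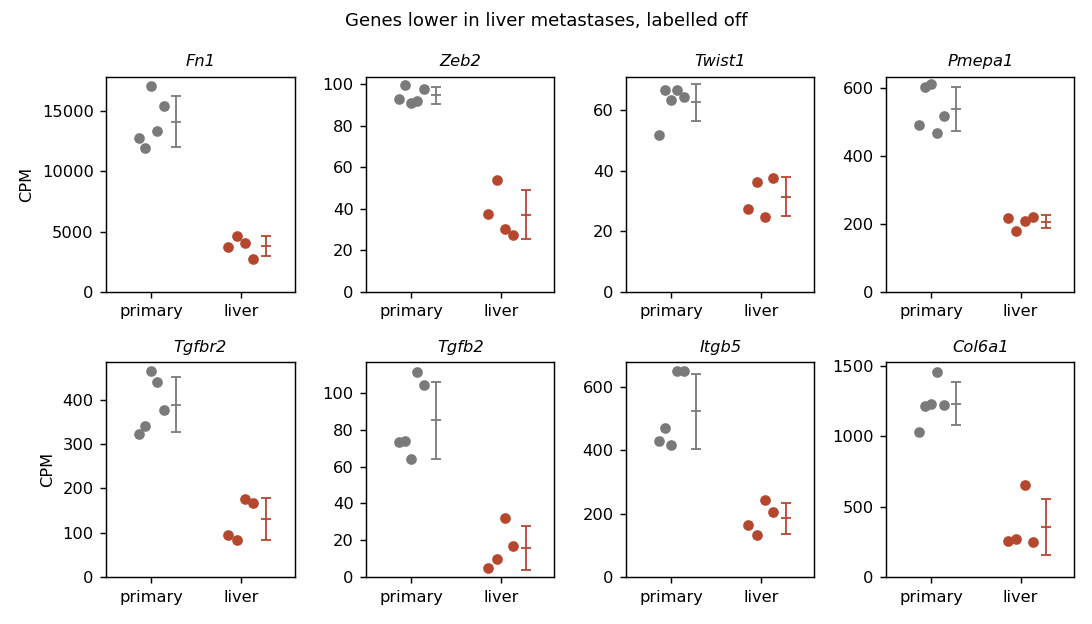
Levels of 8 genes lower in liver metastases (vertical axes, CPM, from 0), with a point per library labelled off (5 primary tumors, 4 liver metastases) and the group mean with its SD beside them. Every liver library lay below every primary tumor for each gene, and the highest *Col6a1* value in the liver (656 CPM) belongs to the library with the highest fibroblast sum.

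Outside the lists, genes called lower that did not track the acinar list included *Col5a2*, a fibrillar collagen chain, with 303, 381, 256, 215 and 274 CPM in primary tumors and 33.5, 24.4, 21.5 and 20.7 CPM in liver metastases (log2 fold change -3.40 ± 0.17 (s.e.), adjusted P = 2.41e-05). *Nuak1*, an AMPK-related kinase, held 105, 130.1, 153, 125 and 138 CPM in primary tumors and 15.9, 12.1, 18.5 and 20.6 CPM in liver metastases (log2 fold change -3.01 ± 0.19 (s.e.), adjusted P = 4.5e-05). *Htra1*, a secreted protease, and *Sdc2*, a syndecan, were lower by -2.55 and -2.50 on the log2 scale. *Penk*, the proenkephalin gene, held 23.8, 19.1, 23.4, 43.5 and 39.4 CPM in primary tumors and 2.03, 4.20, 4.55 and 2.46 CPM in liver metastases (log2 fold change -3.49 ± 0.21 (s.e.), adjusted P = 4.5e-05). Matrix and fibroblast genes are common in this group, and all of these 5 genes kept their call with each host level as a covariate but lost it with the paired-end library added, *Col5a2* with -1.70 (adjusted P = 0.22). In lung metastases *Col5a2* held 10.1 to 60.6 CPM and *Nuak1* 13.1 to 21.7 CPM, below every primary tumor.

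The estimated differences of the KLF and RUNX genes were all under 2-fold. Where the standard error is large, this does not exclude a 2-fold difference. None of 12 KLF genes was called by edgeR or DESeq2 (7 at an unadjusted P under 0.05, against 6075 of all 16017 genes, median 0.40). *Klf4* held 240.3, 262, 370.2, 300.2 and 345 CPM in primary tumors and 151, 338, 387 and 299 CPM in liver metastases (log2 fold change -0.33 ± 0.24 (s.e.), adjusted P = 0.343). *Klf5*, an epithelial KLF factor, held 117, 88.3, 79.6, 93.4 and 113 CPM in primary tumors and 146, 195, 176 and 228 CPM in liver metastases, a difference past the P threshold but under the fold threshold (log2 fold change 0.79 ± 0.16 (s.e.), adjusted P = 0.00657). *Klf9* (log2 fold change 0.95 ± 0.15 (s.e.), adjusted P = 0.0023) was similar. None of 4 RUNX genes was called by either tool (2 at an unadjusted P under 0.05, median -0.70). *Runx1* held 153, 178, 189, 149 and 168 CPM in primary tumors and 101, 119, 86.7 and 97.5 CPM in liver metastases, lower in each liver library than in each primary tumor at less than 2-fold (log2 fold change -0.73 ± 0.13 (s.e.), adjusted P = 0.0046). *Runx2* (log2 fold change -0.68 ± 0.31 (s.e.), adjusted P = 0.136) and *Runx3* (log2 fold change -0.73 ± 0.26 (s.e.), adjusted P = 0.0688) did not pass. Of the cyclin-dependent kinase inhibitors 0 of 6 were called by either tool (3 at an unadjusted P under 0.05), with *Cdkn1a* at 0.86 (adjusted P = 0.0125) and *Cdkn1c* at 0.57 (adjusted P = 0.288).

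**Figure D4:**
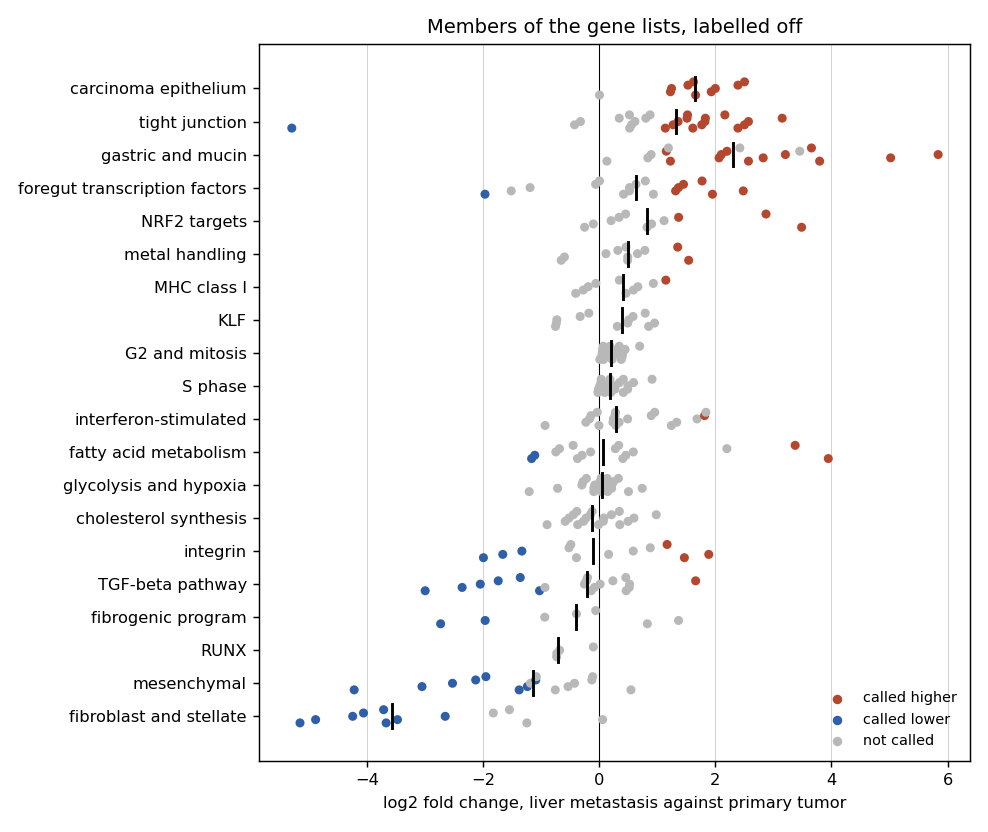
Log2 fold change of liver metastases against primary tumors (horizontal axis) for the tested members of 20 gene lists, with a point per gene colored by its call and a bar at each list median. Medians ran from 2.31 for gastric and mucin genes to -3.57 for fibroblast and stellate genes, and the lists of S phase and of G2 and mitosis held no called gene.

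No proliferation gene was called. None of 20 S-phase genes (median 0.19) and none of 20 G2 and mitosis genes (median 0.20) passed with edgeR or DESeq2. At an unadjusted edgeR P under 0.05 stood 3 and 1 of them, against 6075 of all 16017 genes. *Mki67*, the Ki67 antigen gene, held 302, 274, 295, 159 and 139 CPM in primary tumors and 265, 96.7, 323 and 181 CPM in liver metastases (log2 fold change 0.19 ± 0.32 (s.e.), adjusted P = 0.707). *Rrm2*, the ribonucleotide reductase subunit, was past the P threshold but under the fold threshold (log2 fold change 0.91 ± 0.20 (s.e.), adjusted P = 0.00933). With edgeR 0 of 22 glycolysis and hypoxia genes (median 0.04) and 0 of 19 cholesterol synthesis genes (median -0.12) were called (2 and 5 at an unadjusted P under 0.05, and 1 and 0 called by DESeq2). In fatty acid metabolism 2 of 16 were higher and 2 lower, to be read against 6.8% and 8.09% of all genes. *Pdk4*, a brake on pyruvate oxidation, held 0.412, 0.289, 0.302, 0.517 and 0.352 CPM in primary tumors and 2.85, 3.90, 4.77 and 21.1 CPM in liver metastases (log2 fold change 3.95 ± 0.65 (s.e.), adjusted P = 0.0027). It was highest in liver mouse 3 of day 14, the library with the most hepatocyte RNA, whose part in the difference was not tested. The desaturase *Scd2* was lower, at 1036 to 1317 and 436 to 581 CPM (log2 fold change -1.11 ± 0.14 (s.e.), adjusted P = 0.001), as was *Scd1* (-1.16), whose call was lost without liver mouse 1 of day 7 (-0.67) and without 2 other libraries.

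Of 11 NRF2 targets, genes of the defense against oxidants, 3 were called higher and 0 lower, with a median of 0.82. Among all genes tested 6.8% were called higher. Lung metastases labelled off were higher in their sum too, at 875 to 1198 CPM against 570 to 606 CPM in primary tumors. *Gsta4* (chromosome 9, 78182774 to 78209349), a glutathione transferase for lipid aldehydes, held 67.6, 44.7, 42.5, 73.6 and 62.0 CPM in primary tumors and 305, 402, 708 and 651 CPM in liver metastases (log2 fold change 2.87 ± 0.24 (s.e.), adjusted P = 0.000146). *Gclc*, of glutathione synthesis, held 87.3, 59.4, 65.8, 54.9 and 55.2 CPM in primary tumors and 114, 162, 177 and 241 CPM in liver metastases (log2 fold change 1.37 ± 0.25 (s.e.), adjusted P = 0.00417). *Nqo1*, a quinone reductase, held 1.29, 0.116, 0.362, 0.259 and 0.352 CPM in primary tumors and 3.17, 3.33, 7.87 and 6.02 CPM in liver metastases (log2 fold change 3.49 ± 0.71 (s.e.), adjusted P = 0.00713). In metal handling the zinc importer *Slc39a4* (log2 fold change 1.35 ± 0.19 (s.e.), adjusted P = 0.00134) and the iron exporter *Slc40a1* (log2 fold change 1.54 ± 0.30 (s.e.), adjusted P = 0.00617) were higher, 2 of 11 against the same 6.8%. The *Gclc* and *Nqo1* calls were lost with either host level as a covariate, and that of *Gsta4* with the paired-end library alone (adjusted P = 0.052).

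Immune and stress lists held 1 or 2 calls each, to be read against the 6.8% of all genes called higher and the 8.09% called lower. *Oas1a* was the 1 of 20 interferon-stimulated genes called higher (6.41, 2.78, 4.47, 5.47 and 5.37 CPM in primary tumors and 16.3, 17.7, 17.3 and 23.8 CPM in liver metastases, log2 fold change 1.82 ± 0.25 (s.e.), adjusted P = 0.00122). Of 10 MHC class I genes *H2-K1* alone was called higher (265, 137, 206, 195 and 189.9 CPM in primary tumors and 316, 607, 453 and 563 CPM in liver metastases, log2 fold change 1.15 ± 0.24 (s.e.), adjusted P = 0.0087), a call lost without primary mouse 2 of day 14 (1.04). Of 10 acute phase genes *Orm1* was higher, from 0 to 0.032 CPM to 0.205, 0.27, 0.879 and 6.28 CPM, with most of it in liver mouse 3 of day 14. *Lrg1* was lower (log2 fold change -1.32 ± 0.39 (s.e.), adjusted P = 0.0344), a call lost without any of 5 libraries. Of 13 immediate early genes, which respond to tissue dissociation, *Atf3* was called higher (log2 fold change 1.18 ± 0.20 (s.e.), adjusted P = 0.00281) and *Fos* was not (log2 fold change -0.53 ± 0.19 (s.e.), adjusted P = 0.0683).

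The same contrast in the libraries labelled on, which hold less *Smad4* mRNA and share no library with it, called 1734 genes higher and 1887 lower, 11.3% and 12.3% of 15360 tested. Of the genes called higher in the labelled-off libraries 1064 were tested there, 1038 (97.6%) had the same sign and 861 (80.9%) were called higher, which is 49.7% of the genes called higher in labelled-on libraries. Of those called lower, 1185 were tested, 1170 (98.7%) had the same sign and 963 (81.3%) were called lower, 51.0% of the labelled-on calls. Only 1 of the 1064 was called the other way, and 0 of the 1185. *Krt19* differed by 1.56 labelled on, *Tff2* by 2.66, *Tff3* by 5.01, *Fn1* by -3.13 and *Zeb2* by -2.14. All 16 mesenchymal genes were called lower there, against 8 here, and 6 of 7 genes of the fibrogenic program against 2. A count that differs does not show that the effect differs. The test of organ by label over all 20 libraries, added after the data were seen, found 8 genes with a higher and 15 with a lower fold change labelled on among 17147 tested (2165 at an unadjusted P under 0.05). Of the named genes only *Ccbe1*, a secreted gene of lymphatic growth, was among them, with 0.83 labelled off and -3.09 labelled on (interaction -3.99, adjusted P = 0.026).

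**Figure D5:**
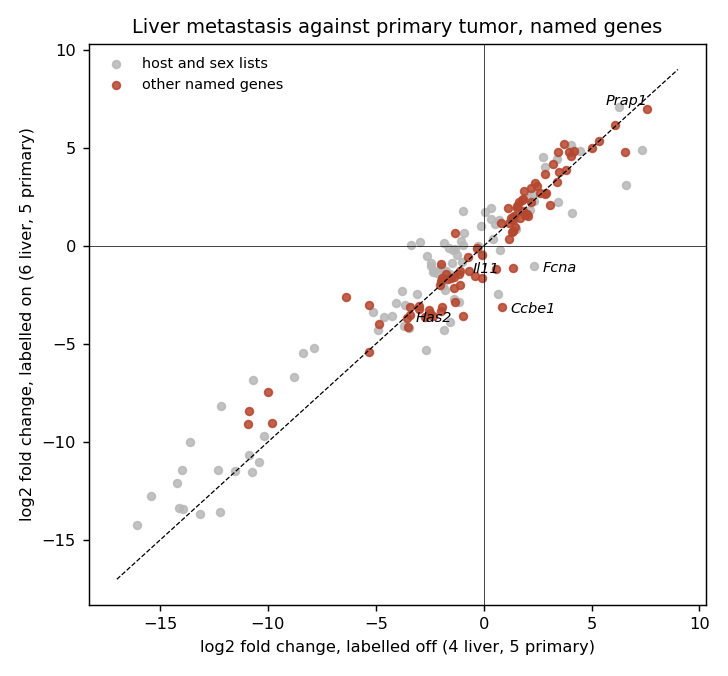
Fitted log2 fold change of liver metastases against primary tumors for the named genes, in libraries labelled off (horizontal axis, 4 liver and 5 primary) and labelled on (vertical axis, 6 liver and 5 primary), with genes of the host and sex lists in gray and the line of equal change dashed. *Prap1* (7.57 and 6.99) lies near the line, and *Ccbe1* (0.83 and -3.09) lies far below it. Fitted changes of genes without a count in 1 organ depend on the prior count.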

How the data were processed

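RNA of mKate2-sorted cells was sequenced as poly(A) TruSeq stranded libraries with 75-bp single-end reads. The authors deposited raw counts for 53465 genes, made per the processing notes with FastQC 0.11.5, Trimmomatic 0.36, STAR 2.5.3a and featureCounts 1.6.3 on mm10/GRCm38. The strand setting of the counting is not given in the sources used here, and overlapping and antisense genes were not separated. Every column name matched 1 sample title, with 0 columns unmatched. Here genes were filtered with filterByExpr (minimum count 10, total 15) in edgeR 4.0.16 (R 4.3.3), scaled by TMM and fitted by the quasi-likelihood model with robust estimates on day and organ. Calls took a fold over 2 and a Benjamini-Hochberg adjusted P under 0.05 over all genes. The depth of 16.6 to 43.6 M counts and the residual 6 degrees of freedom limit the precision, and floors of 3 counts cover counting error only. A host list counted as tracked at a correlation of 0.8 and a slope of 0.5 or more, and as not tracked at a correlation under 0.5 or a slope under 0.25.

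The 35 lists, with 439 genes, and the libraries compared were chosen with earlier results of these data known. Named genes were, per list and direction, the 3 called genes with the lowest P (all where 5 or fewer were called), the host markers, and genes named by the study. Outside the lists they were, per direction, the 12 genes with the lowest P among those called without overlap, at a mean of 10 CPM or more, that did not track the hepatocyte (higher) or acinar (lower) list, and the 6 that tracked it. List members named outside this rule, such as *Krt8*, *Cldn3*, *Cdh1*, *Ocln*, *Agr2*, *Pgc*, *Tgfb3*, *Tgfbr3*, *Ski*, *Sparc*, *Cdh11*, *Prrx1*, *Vim*, *Mki67*, *Klf9* and the uncalled members given for contrast, were chosen after their values were seen. The alternatives were DESeq2 1.42.0, other scalings and filters, a block for mouse number, day 14 alone, the paired-end library, host-level covariates and leaving out each library. The script was tested on simulated data. Some items, alleles and list members among them, are not reported here. Mouse numbers did not pair the libraries: deviations of same-numbered libraries correlated at 0.018, -0.04 and -0.069.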

Additional observations from a re-analysis of the deposited data

Results flagged for a closer look

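Within-group values were screened for a library far from the rest of its group, a screen that marks about 1 group in 20 by chance. It marked 18 of 212 groups of values among the named genes at 10 CPM or more. Of these, 7 were in liver mouse 2 of day 14, the liver library with the highest fibroblast sum: *Pdgfrb* 78.4, *Postn* 46.0, *Lum* 112, *Col1a2* 1277, *Pdgfra* 41.1, *Hgf* 11.7 and *Col6a1* 656 CPM. In the other liver libraries *Itga1* was low in mouse 1 of day 14 (31.3 CPM) and *Nipal1* high in it (50.6 CPM), *Fcgbp* was high in mouse 3 of day 14 (656 CPM), and *Mmp19* was low in mouse 1 of day 7 (6.07 CPM). Among primary tumors *Ambp* (18.9 CPM) was high and *Twist1* (51.8 CPM) low in mouse 1 of day 7, *Cldn1* (40.0 CPM) and *Scd2* (1317 CPM) high and *Id1* (24.5 CPM) low in mouse 2 of day 7, and *Itgb3* (161 CPM) and *Wisp1* (192 CPM) high in mouse 3 of day 7.

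*Ccbe1* differed between the labels by the test of organ by label, with a lower liver against primary log2 fold change labelled on than labelled off (difference -3.99, edgeR adjusted P = 0.026). Labelled off it held 28.2, 14.1, 25.4, 14.5 and 13.5 CPM in primary tumors and 30.3, 63.8, 15.2 and 11.6 CPM in liver metastases, with liver mouse 1 of day 14 the highest.

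The paired-end liver library labelled off, day 7 mouse 2, was left out of the comparison and used only as an alternative. Its acinar genes summed to 544 CPM, above the 6.11 to 14.1 CPM of the other liver libraries and below the 1374 to 4887 CPM of primary tumors, and its fibroblast genes to 36774 CPM. The part of these values in the results with that library was not tested.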

How the results depend on the processing

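Against 1089 genes called higher and 1295 lower, the counts moved by over 1.5 times under these settings: day 14 alone (490 higher, 515 lower), the paired-end library added (254 and 235), the fibroblast level as a covariate, chosen after seeing the data (184 and 51), the hepatocyte level as a covariate for genes lower (771), at least 10 counts in every library for genes lower (729) and no fold threshold (1786 and 2220). Day 14 alone has fewer samples and the count minimum fewer genes tested, and for the others the cause was not tested. Leaving out each library gave 727 to 1249 higher and 886 to 1307 lower, and labelled on 1534 to 1855 and 1731 to 1972, with 579 and 692 genes called without any 1 library. DESeq2 (1286 and 1396), its size factors (1113 and 1245), host-list genes left out of the scaling (1189 and 1198), no filter (1036 and 1182), no day term (1232 and 1251), no library with *mt-Co3* counts (1112 and 1307), *mt-Co3* as a covariate (1297 and 1219) and a single fit of 12 groups (1274 and 1351) stayed within 1.5 times. The genes of the main calls kept their sign in every setting but the paired-end library (99.6% of genes lower) and the covariates (hepatocyte level 96.4% and 96.5%, fibroblast level 97.0% and 94.3%). With the replicate block for mouse number, which shares only a number, 738 and 914 genes were called (labelled on 1511 and 1857).

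Of 138 named genes called, DESeq2 kept 138, the block 114 of 133 tested, day 14 alone 86 of 136, the paired-end library 58 of 132, the hepatocyte level 69 and the fibroblast level 39. Differences that reversed were *Sst* (0.54) with the hepatocyte level and *Fcna* (-0.66), *Vwf* (0.16), *Lum* (0.51), *Col1a1* (0.40), *Col3a1* (0.68) and *Pdgfra* (0.56) with the fibroblast level. *Lum*, *Col1a1*, *Col3a1* and *Pdgfra* are members of the list whose mean is that level, so the fit takes out their difference by its design. At these depths levels under 3 counts, 0.0684 to 0.181 CPM, were not resolved.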

Other observations

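Genes of the intestinal brush border, noticed after the values were seen and not tested as a group, were among the genes higher in liver metastases. *Alpi*, the intestinal alkaline phosphatase, held 0.353, 0, 0.181, 0.0369 and 0.032 CPM in primary tumors and 29.5, 8.32, 12.6 and 27.4 CPM in liver metastases (edgeR, log2 fold change 7.85 ± 0.67 (s.e.), adjusted P = 0.000178). *Cdhr2*, a protocadherin that links microvilli, held 3.06, 1.56, 0.906, 2.44 and 1.02 CPM in primary tumors and 52.3, 34.8, 45.1 and 72.3 CPM in liver metastases (log2 fold change 4.82 ± 0.41 (s.e.), adjusted P = 0.000174), and *Myo1a*, the brush border myosin, 2.82, 3.18, 2.17, 2.40 and 3.55 CPM in primary tumors and 34.1, 40.5, 55.3 and 113 CPM in liver metastases (log2 fold change 4.17 ± 0.36 (s.e.), adjusted P = 0.000208). For each of these 3 genes all liver libraries lay above all primary tumors. The microvillar genes *Cdhr5* (log2 fold change 2.24 ± 0.21 (s.e.), adjusted P = 0.000286) and *Vil1* (log2 fold change 1.74 ± 0.24 (s.e.), adjusted P = 0.00134) were higher too, as was the intestinal lectin *Lgals4*, at 299 to 559 CPM in primary tumors and 1650.3 to 3026 CPM in liver metastases (log2 fold change 2.19 ± 0.20 (s.e.), adjusted P = 0.000269). *Cdx2*, a transcription factor of the intestine, held 36.4, 15.0, 38.6, 27.9 and 23.9 CPM in primary tumors and 94.8, 42.2, 54.4 and 81.0 CPM in liver metastases (log2 fold change 1.35 ± 0.30 (s.e.), adjusted P = 0.011). *Cdh17*, an intestinal cadherin, held 264, 229, 273, 238 and 232 CPM in primary tumors and 940.5, 675, 666 and 467 CPM in liver metastases (log2 fold change 1.53 ± 0.17 (s.e.), adjusted P = 0.000498). The fatty acid binding gene *Fabp2* of enterocytes was higher at a low level, with 0.118, 0.0579, 0.0604, 0.0739 and 0.064 CPM in primary tumors and 2.92, 0.751, 0.611 and 2.72 CPM in liver metastases (log2 fold change 4.60 ± 0.61 (s.e.), adjusted P = 0.00105).

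The lung metastases labelled off held 12.1 to 76.2 CPM of *Alpi*, 19.7 to 72.7 CPM of *Cdhr2*, 31.6 to 89.5 CPM of *Myo1a*, 47.0 to 92.1 CPM of *Cdx2* and 99.2 to 164 CPM of *Vil1*, ranges that overlapped those of the liver. *Cdh17* (317 to 577 CPM) overlapped as well, while *Lgals4* (907 to 1602 CPM) was lower in each lung metastasis than in each liver library. In the labelled-on libraries the liver against primary difference was 9.95 for *Alpi* (adjusted P = 1.35e-06), 4.44 for *Cdhr2* (adjusted P = 1.43e-05) and 4.87 for *Myo1a* (adjusted P = 8.53e-06). *Cdh17*, at 0.54 (adjusted P = 0.269), and *Cdx2*, at 0.93 (adjusted P = 0.0211), were not called there. *Alpi*, *Cdhr2*, *Cdhr5* and *Myo1a* were among the 55 genes higher whose call held with the paired-end library and with each host level as a covariate.

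Liver mouse 1 of day 14 was an extreme of the 9 libraries for several lists. It was the highest of the 9 for 18 of 20 interferon-stimulated genes, with *Ifit3* at 4.06, 103, 2.25 and 9.78 CPM in the 4 liver libraries and 13.4, 4.802, 8.27, 12.4 and 7.93 CPM in primary tumors. It was also the highest for 16 of 22 glycolysis and hypoxia genes, among them *Bnip3*, a mitophagy receptor induced by low oxygen (24.5, 147, 12.9 and 18.6 CPM in the liver libraries), and the lowest for 13 of 20 S-phase and 11 of 20 G2 and mitosis genes. Other libraries were extremes for other lists. Liver mouse 3 of day 14 was the lowest for 11 of 16 mesenchymal genes. Primary mouse 2 of day 7 was the highest for 12 of 19 cholesterol synthesis genes, and primary mouse 3 of day 7 for 11 of 20 G2 and mitosis genes. The levels of *Col1a2* in primary tumors were 3662, 457, 4056, 616 and 469 CPM, while *Col1a1*, the other chain of type I collagen, held 5153, 4873, 5119.7, 3463 and 3467 CPM.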
